A study of Medicago truncatula with 15 samples.

Results

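The 200 loci described here were expressed in the WT shoot apex of Medicago truncatula, were less than 4-fold apart between WT leaf and WT apex by TPM, did not rise 2-fold in the Mtsoc1a apex, and had the lowest expression in the triple mutant apex relative to WT apex. They were taken from 50021 loci, by deposited TPM (transcripts scaled to a fixed total), which put transcript abundance on a scale corrected for transcript length and give 1 value for each group of libraries. TPM was summed over the transcripts of a locus. A locus had at least 5 TPM in WT apex, and ratios were formed after adding 1 TPM to each value. Of 14273 loci with at least 5 TPM in WT apex, 10191 met all bounds. At or below the ratio of the last locus taken there were 432, of which 202 were left out because WT leaf had 0.25 times the apex value or less, 17 because leaf had 4-fold or more, and 13 because Mtsoc1a apex had 2-fold or more. Since the triple mutant, Mtsoc1a and WT apex values and the WT leaf values chose the loci, their apex values are given as a description, without a test. Mtsoc1a leaf played no part in the choice, and the comparison of Mtsoc1a leaf with WT leaf is the one tested below. Its reference, WT leaf, was bounded by the rule, so the comparison is not wholly free of the choice. The selected loci are set there beside all loci tested, not beside loci within the same bounds.

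All plants were of accession R108 and were grown in vernalized long days. The triple mutant apices (Mtsoc1-4 in the sample labels, Mtsoc1-2 in the article) came from 83-day-old non-flowering plants of 1 line made by CRISPR-Cas9 editing of SOC1a, SOC1b and SOC1c. The Mtsoc1a apices and leaves came from 15-day-old plants with a Tnt1 retrotransposon insertion in SOC1a, and the WT apices and leaves from 15-day-old R108 plants. Each of the 5 groups had 3 libraries, each pooled from more than 1 plant. By the article, the Mtsoc1a and WT apex samples were the upper parts of primary stems with their apices, and the triple mutant samples were primary shoot apices. The article describes the triple mutant libraries separately from the Mtsoc1a and WT apex libraries, and the sample titles name no batch. Genotype, plant age, the tissue taken and any difference in how the libraries were made cannot be told apart in these data.

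SOC1 is a MADS-box transcription factor that integrates signals for flowering in the shoot apex of many plants. Abscisic acid is a stress hormone whose signalling runs through inhibition of protein phosphatases, and anion and metal transporters, cell wall enzymes and peroxidases are among the gene families whose expression follows nutrition, stress and growth. Medicago locus identifiers carry the chromosome number after the letters Medtr, and loci with neighbouring numbers lie near each other.

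Total counts were 13224488 to 15891830 in the triple mutant libraries, 30574854 to 33419788 in Mtsoc1a apex, 31302332 to 37266298 in WT apex, 34110818 to 37994494 in Mtsoc1a leaf and 31134743 to 38896407 in WT leaf. Low counts were therefore least precise in the triple mutant. SOC1a itself had 413, 408 and 454 counts in the triple mutant apex, 47, 22 and 29 in Mtsoc1a apex and 698, 865 and 582 in WT apex, and it had 10, 4 and 0 counts in Mtsoc1a leaf against 220, 203 and 181 in WT leaf. These counts are not scaled for library size. In normalized CPM (counts scaled by TMM-normalized library size) the SOC1a means were 22.4 in triple mutant apex, 0.733 in Mtsoc1a apex and 15.3 in WT apex. The insertion line thus matched its label in both tissues, while an edited transcript need not be lost and SOC1a counts do not check the triple mutant label. LFY and TFL1c, which are expressed in shoot meristems, were at 0 counts in all 6 leaf libraries. HDL was too, but had only 4, 14 and 7 counts in WT apex. The other apex genes looked at were present in leaf, by unscaled counts that show presence and do not compare levels between tissues. AP1 had 78, 64 and 90 counts in WT leaf and 133, 17 and 140 in WT apex. FULb had 140, 48 and 90 counts in WT leaf and 188, 68 and 118 in WT apex. SVPc had 39, 29 and 18 counts in WT leaf and 921, 865 and 937 in WT apex. A list of 24 photosynthesis loci was chosen by the study because they were higher in the triple mutant. It summed to 896 to 1657 normalized CPM in triple mutant apex, 279 to 413 in Mtsoc1a apex and 236 to 391 in WT apex. All 24 were called higher in triple mutant apex, and their part in the results was not tested.

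The selected loci made up 0.286% of all TPM in the triple mutant apex, 1.46% in Mtsoc1a apex and 1.35% in WT apex. In leaves they made up 1.29% in Mtsoc1a and 1.52% in WT. Their median level was 2.51 TPM in the triple mutant apex, 17.7 TPM in Mtsoc1a apex and 16.7 TPM in WT apex, and 13.6 TPM in Mtsoc1a leaf and 15.9 TPM in WT leaf. In the triple mutant 43 of the 200 were under 1 TPM and 10 had 0 counts in all 3 libraries, whereas none was under 1 TPM in Mtsoc1a or WT apex. Of the 5 groups, the triple mutant apex thus had the lowest median and the lowest share of TPM in these loci, as the rule requires within the apex. The bound between WT leaf and WT apex held on TPM only. The median ratio of leaf to apex in WT was 0.633 by TPM and 1.26 by normalized CPM. By CPM 30 of the 200 were 4-fold or more higher in WT leaf and 1 was at 0.25 or less. The CPM include TMM factors, which were 0.628 to 0.669 in the WT leaf libraries and 1.36 to 1.41 in the WT apex libraries. The cause of the disagreement was not tested. Whether these loci are free of a leaf bias thus depends on the scale. In bulk tissue, fewer cells of a type and less RNA per cell cannot be told apart.

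In the fit across all apex loci (edgeR's quasi-likelihood test with Benjamini-Hochberg adjustment, called at an adjusted p of 0.05 and a 2-fold change), 177 of the 198 loci that passed the filter on low counts were called lower in triple mutant apex than in WT apex. Over all 22555 loci tested, 6.4% were called lower, and since the rule used this contrast the count is a description only. The median log2 fold change of the selected loci was -2.47, against -0.02 over all loci tested. Against Mtsoc1a apex, 173 were called lower in the triple mutant, with a median of -2.57, where 8.8% of all loci were called lower. The 2 loci that did not pass the filter were Medtr2g084190, at 0 counts in the triple mutant and 44 counts in WT apex, and Medtr7g039530, at 2 counts in the triple mutant and 41 counts in WT apex.

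In 194 of the 198 loci all 3 triple mutant libraries lay below all 3 WT apex libraries, a pattern found in 21.5% of all loci tested. The ratio of triple mutant to WT TPM ranged between 0.0355 and 0.33 (median 0.235), and 22 loci had a ratio of 0.1 or less. At the limit stood Medtr3g088100, at 1.11 TPM in triple mutant apex, 4.37 in Mtsoc1a apex and 5.40 in WT apex, and Medtr1g106785, at 9.56 TPM in triple mutant apex, 31.7 in Mtsoc1a apex and 31.0 in WT apex. The first loci beyond it were Medtr3g065960, at 1.88 TPM in triple mutant apex and 7.72 TPM in WT apex, and Medtr8g095030, at 3.60 TPM in triple mutant apex and 12.9 TPM in WT apex.

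**Figure D1:**
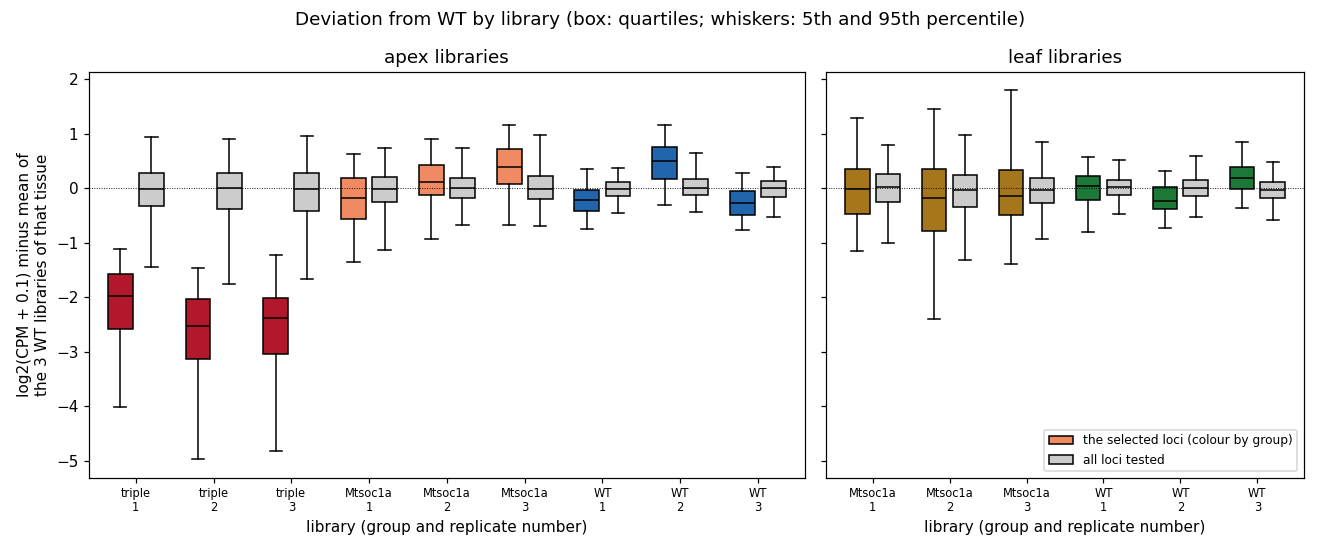
Log2(CPM + 0.1) of the selected loci (coloured) and of all loci tested (grey) in each library, minus the mean of the 3 WT libraries of the same tissue. Boxes are quartiles and whiskers the 5th and 95th percentiles over 198 apex and 188 leaf loci. The selected loci had medians of -1.97, -2.53 and -2.38 in the triple mutant libraries, while WT apex replicate 2 stood at 0.51 and the other WT apex libraries at -0.22 and -0.27.

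The selected loci also moved together between replicates of one group. WT apex replicate 2 was the highest of the 3 WT apex libraries for 156 of the 198 loci (78.8%), against 37.6% of all loci tested. Mtsoc1a apex replicate 3 was highest for 65.2% of them, against 35.5% of all loci, and triple mutant replicate 1 for 67.2%, against 35.0%. In leaves WT replicate 3 was highest for 56.4% of the 188 loci tested there, against 29.0% of all. In Mtsoc1a leaf no library stood out to that degree, since the highest share was 44.1% for replicate 1, against 41.5% of all loci. The median ratio of the highest to the lowest library of a group was 1.87 in triple mutant apex, 1.74 in Mtsoc1a apex and 2.05 in WT apex, compared with 1.23, 1.26 and 1.31 over all loci tested with counts in every library. In leaves it was 1.73 in Mtsoc1a and 1.61 in WT, against 1.39 and 1.34. The WT apex value that the rule used contained replicate 2, so a high value there could favour the choice of a locus. The share of 78.8% is therefore not independent of the rule, and how much the rule added to it was not tested. Without replicate 2 the median log2 fold change in the triple mutant was -2.15 and 161 loci were called lower.

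The 10 loci with the lowest ratios ranged between 0 and 6.53 TPM in the triple mutant apex and between 16.2 and 114 TPM in WT apex. All were under 0.1 in ratio, and none had a triple mutant library as high as any WT apex library. The lowest ratio was that of Medtr4g119030, annotated with negative regulation of transcription by RNA polymerase II, which had 5, 0 and 0 counts in the triple mutant libraries, 144, 225 and 292 in Mtsoc1a apex and 152, 277 and 154 in WT apex. Medtr1g088910, annotated as protein binding, followed with 0.452, 0 and 0.0495 CPM in the triple mutant, 5.69, 6.68 and 9.51 in Mtsoc1a and 3.42, 10.6 and 3.59 in WT apex. In both loci every triple mutant library was below every other apex library.

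Medtr3g072500, annotated as a membrane component, had 0.854, 1.17 and 2.13 CPM in the triple mutant libraries, 30.3, 53.7 and 96.4 CPM in Mtsoc1a and 44.0, 106 and 34.1 CPM in WT. WT replicate 2 and Mtsoc1a replicate 3 carried the highest values. Medtr5g430470 had 1.10, 0.877 and 1.53 CPM in the triple mutant libraries, 47.6, 45.0 and 51.6 CPM in Mtsoc1a and 31.9, 70.5 and 30.8 CPM in WT. Medtr1g112050 had 1.15, 0.643 and 1.38 CPM in the triple mutant libraries, 18.4, 20.5 and 28.5 CPM in Mtsoc1a and 23.3, 16.6 and 21.2 CPM in WT. In Medtr1g112050 WT replicate 2 was the lowest WT library, and every triple mutant library was still far below it.

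Medtr0271s0010, annotated with embryo development ending in seed dormancy, was at 0 counts in all 3 triple mutant libraries and had 47, 137 and 145 counts in Mtsoc1a apex and 217, 157 and 100 in WT apex. With the group total set to a floor of 3 counts, it was at least 64.1-fold lower in the triple mutant apex. Medtr0027s0230, described as a cytosolic class I small heat shock protein, a chaperone that binds unfolded proteins, was also at 0 counts in the triple mutant, with 23, 19 and 46 counts in Mtsoc1a apex and 154, 421 and 101 in WT apex. By the same floor it was at least 91.4-fold lower in the triple mutant apex, and Mtsoc1a lay below WT in every library too.

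Medtr3g113890, the 1 selected locus on the list of candidate flowering genes (named GRP there, in the gibberellin category), had 1 count over the triple mutant libraries and 250 over the WT apex libraries. The triple mutant was 101-fold lower, with a 95% interval of 18.0 to 4023 that covers counting error only. Its values were 2.67, 1.38 and 1.44 CPM in Mtsoc1a apex and 2.50, 1.05 and 1.65 in WT apex, which overlapped. Medtr8g089830 had 0.653, 0.409 and 0.346 CPM in the triple mutant libraries, 6.64, 6.59 and 12.3 CPM in Mtsoc1a and 3.94, 14.1 and 4.38 CPM in WT. Medtr3g491850 had 0.502, 0.351 and 0.148 CPM in the triple mutant libraries, 4.23, 5.30 and 6.01 CPM in Mtsoc1a and 5.35, 9.68 and 4.38 CPM in WT. All 10 thus had triple mutant libraries near the bottom of the scale and Mtsoc1a libraries at about the WT level, with Medtr0027s0230 as the exception in Mtsoc1a.

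**Figure D2:**
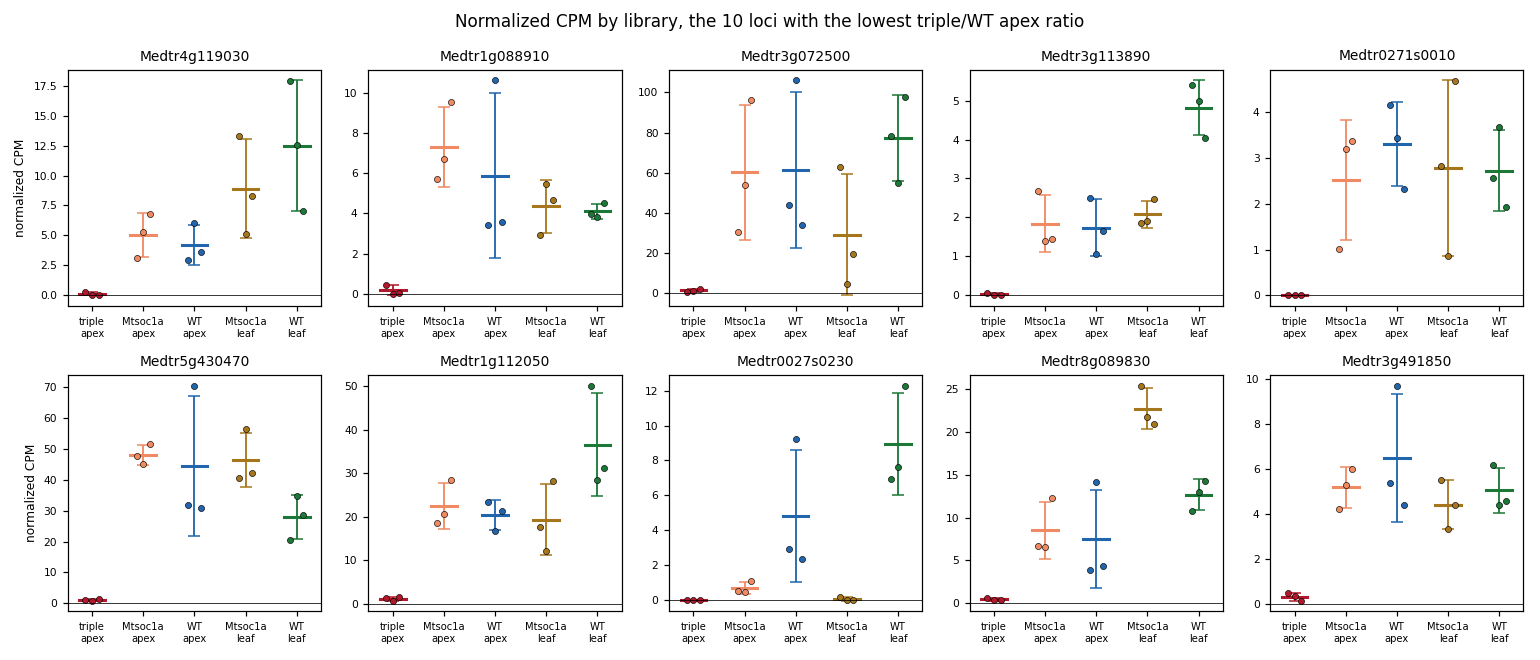
Normalized CPM of the 10 loci with the lowest triple mutant to WT apex ratio, 1 point per library, with the mean (bar) and SD (whiskers, n = 3) in each of 5 groups. The y axes differ between loci. All triple mutant points lie close to 0, and Medtr0027s0230 is also near 0 in Mtsoc1a leaf.

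The loci with the highest WT apex TPM mostly had higher ratios than these. Medtr5g084540, annotated with peptide biosynthesis, had 874 TPM in triple mutant apex, 4036 in Mtsoc1a apex and 2938 in WT apex, and 322, 213 and 255 CPM in the triple mutant libraries, 931, 1127 and 988 CPM in Mtsoc1a and 759, 787 and 830.3 CPM in WT. Its 3 WT apex libraries were close together, with replicate 2 between the others. Medtr4g021730, annotated with metal ion binding, had 237 TPM in triple mutant apex, 1228 in Mtsoc1a apex and 1264 in WT apex, and more in leaves, at 3634 TPM in Mtsoc1a and 4234 TPM in WT.

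Medtr3g076950 followed with 144 TPM in triple mutant apex, 579 in Mtsoc1a apex and 611 in WT apex. Medtr4g063310 had 141 TPM in triple mutant apex, 633 in Mtsoc1a apex and 514 in WT apex. Medtr4g007300 had 73.9 TPM in triple mutant apex, 473 in Mtsoc1a apex and 483 in WT apex. In each of the 3 the triple mutant alone was low, with Mtsoc1a apex above or just below WT apex. Medtr5g094210, annotated with fatty acid binding, had 100.3 TPM in triple mutant apex, 358 in Mtsoc1a apex and 422 in WT apex. Medtr4g087080 combined a high level with a low ratio. It had 28.1 TPM in triple mutant apex, 492 in Mtsoc1a apex and 416 in WT apex, and 0.854, 1.11 and 1.04 CPM in the triple mutant libraries, 14.1, 22.7 and 23.9 CPM in Mtsoc1a and 17.2, 19.3 and 14.0 CPM in WT. Its 3 triple mutant libraries were within a factor of 1.30 of each other and all far below the others.

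Medtr7g108200, annotated like Medtr4g119030 with negative regulation of transcription, had 69.4 TPM in triple mutant apex, 298 in Mtsoc1a apex and 349 in WT apex. Medtr7g013660, on the metal ion transport list, had 49.5 TPM in triple mutant apex, 282 in Mtsoc1a apex and 323 in WT apex. Medtr0026s0010, annotated with regulation of transcription, had 61.5 TPM in triple mutant apex, 225 in Mtsoc1a apex and 253 in WT apex. All 10 were called lower in the triple mutant than in WT apex, and for none did the Mtsoc1a value leave the range of 0.847 to 1.37 times WT.

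Of the 200 loci, 30 were on at least 1 of the GO biological process terms that the study tested on these samples. Apart from photosynthesis, the loci counted for a term are those the study listed for it among genes lower in the triple mutant. They are not the whole term, and their fall in the triple mutant was set by the list. Of the 12 loci listed for abscisic acid-activated signalling, 6 were selected and 10 of all 12 were called lower in the triple mutant. The selected ones had a median log2 fold change of -3.44. Medtr3g071740 had 0.904, 0.292 and 0.0989 CPM in the triple mutant libraries, 11.9, 17.2 and 12.8 CPM in Mtsoc1a and 7.83, 12.9 and 11.8 CPM in WT. Medtr7g070050 had 0.803, 0.994 and 0.593 CPM in the triple mutant libraries, 14.1, 16.8 and 14.9 CPM in Mtsoc1a and 9.78, 10.5 and 13.3 CPM in WT. In Medtr7g070050 the WT and Mtsoc1a libraries each kept within a narrow range and all triple mutant libraries were far lower.

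Medtr3g055120 had 4.27 TPM in triple mutant apex, 55.3 in Mtsoc1a apex and 47.7 in WT apex. Medtr4g014460 had 1.92 TPM in triple mutant apex, 35.0 in Mtsoc1a apex and 23.4 in WT apex. Medtr5g083270 had 1.55 TPM in triple mutant apex, 18.0 in Mtsoc1a apex and 11.0 in WT apex. Together with Medtr3g071740 and Medtr7g070050, these also made up the selected loci of the term for regulation of protein serine/threonine phosphatase activity. The abscisic acid loci had log2 fold changes of -0.13 to 0.52 in Mtsoc1a apex, 5 of 6 above 0, and -0.70 to 0.55 in Mtsoc1a leaf, 4 of 6 below 0. None of the 6 was called in leaf by edgeR. Medtr5g043660, on the abscisic acid metabolism term, had 3.01, 0.760 and 0.544 CPM in the triple mutant libraries, 8.04, 9.11 and 17.2 CPM in Mtsoc1a and 6.51, 16.7 and 5.94 CPM in WT.

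Of the 16 loci listed for inorganic anion transport, 7 were selected. All 16 were called lower in the triple mutant, a direction set by the list. Medtr3g087740 had 15.2, 11.7 and 5.24 CPM in the triple mutant libraries, 98.1, 131 and 132 CPM in Mtsoc1a and 111, 144 and 66.7 CPM in WT. Medtr1g041695 had 2.91, 0.409 and 0.148 CPM in the triple mutant libraries, 31.9, 39.0 and 44.2 CPM in Mtsoc1a and 29.4, 37.9 and 16.5 CPM in WT. Medtr1g075640 had 1.51, 1.35 and 0.989 CPM in the triple mutant libraries, 17.6, 21.4 and 43.2 CPM in Mtsoc1a and 26.9, 40.0 and 16.4 CPM in WT. Triple mutant replicate 1 was the highest of its group in each. Medtr4g104700, which is also on the nitrate assimilation term and is annotated with response to wounding, had 0 counts in the triple mutant and 364 over the WT apex libraries, and was at least 49.2-fold lower in the triple mutant. Its neighbour by number, Medtr4g104730, had 0.452, 0 and 0 CPM in the triple mutant libraries, 3.90, 4.06 and 5.15 CPM in Mtsoc1a and 2.56, 3.50 and 2.14 CPM in WT.

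In Mtsoc1a leaf all 7 anion transport loci had a log2 fold change below 0, between -1.32 and -0.03 with a median of -0.71, where the median of the 14 loci of the term tested in leaf was 0.02 and that of all loci tested was 0.00. In 3 of the 7 all Mtsoc1a leaf libraries were below all WT leaf libraries, a pattern found in 9.06% of all loci tested, and 49.1% of all loci tested were below 0. None of the 7 was called in leaf by edgeR, while the fit without WT leaf replicate 2 called Medtr1g041695.

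Of the 23 loci listed for metal ion transport, 7 were selected. In the triple mutant 22 of the 23 were called lower, a direction set by the list. Besides Medtr7g013660, Medtr5g025150 had 0.10, 0.0585 and 0.0495 CPM in the triple mutant libraries, 2.11, 1.56 and 1.69 CPM in Mtsoc1a and 1.53, 0.700 and 1.14 CPM in WT. Medtr7g083060 had 0.904, 1.11 and 0.495 CPM in the triple mutant libraries, 1.70, 2.83 and 4.34 CPM in Mtsoc1a and 2.75, 5.12 and 3.15 CPM in WT. Both are annotated with cadmium detoxification, and both had all triple mutant libraries below all others. Medtr1g099800, annotated with metal ion binding, had 7.60 TPM in triple mutant apex, 41.1 in Mtsoc1a apex and 35.2 in WT apex. The 7 loci had leaf log2 fold changes of -0.77 to 1.37, 3 below and 4 above 0. None was called by edgeR, and DESeq2 called Medtr1g099800.

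Medtr6g033085 and Medtr6g033055, annotated with response to auxin and on the xyloglucan metabolism and cell wall biogenesis terms, lie 30 apart in number. The first had 1.96, 1.05 and 0.495 CPM in the triple mutant libraries, 22.6, 22.6 and 13.5 CPM in Mtsoc1a and 17.2, 10.1 and 12.0 CPM in WT. The second had 13.2, 5.50 and 5.09 CPM in the triple mutant libraries, 72.4, 93.4 and 54.5 CPM in Mtsoc1a and 68.3, 40.2 and 43.5 CPM in WT. Both had WT replicate 1 as the highest WT library, unlike most selected loci, and both had Mtsoc1a over WT ratios among the higher ones, at 1.75 and 1.68.

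Of the 22 loci listed for oxidative stress, 3 were selected. Medtr5g074970, also on the hydrogen peroxide catabolism term, had 3.28 TPM in triple mutant apex, 34.9 in Mtsoc1a apex and 25.4 in WT apex. Medtr2g022900, annotated with protein folding, had 2.92 TPM in triple mutant apex, 38.3 in Mtsoc1a apex and 23.2 in WT apex. Medtr3g077560 had 18.6 TPM in triple mutant apex, 92.4 in Mtsoc1a apex and 108 in WT apex. All 3 had triple mutant libraries below every WT apex library. Of the chitin catabolism term, Medtr7g115220 had 4.25 TPM in triple mutant apex, 56.1 in Mtsoc1a apex and 41.1 in WT apex. Of the amino acid transport term, Medtr8g078270 had 1.99 TPM in triple mutant apex, 11.1 in Mtsoc1a apex and 9.02 in WT apex. Medtr1g029750 had 5.13 TPM in triple mutant apex, 13.1 in Mtsoc1a apex and 18.2 in WT apex. Medtr1g029750 was among the 21 loci not called lower in the triple mutant, and its WT libraries were 18.3, 61.2 and 16.4 CPM. No selected locus was on the terms for flavonoid biosynthesis, polyketide metabolism, mRNA transcription or photosynthesis. For flavonoid biosynthesis, polyketide metabolism and mRNA transcription, the bounds of the rule left few to select, namely 2 of 9, 0 of 8 and 0 of 5 loci. For photosynthesis 2 of 24 were within the bounds. All 24 were called higher in the triple mutant, so none could be among the lowest ratios. In the triple mutant, 6 of the 9 flavonoid, 5 of the 8 polyketide and all 5 mRNA transcription loci were called lower, a direction set by the lists. Of the 14 loci of the nitrogen compound term, 3 were selected, namely Medtr3g102980, described with the leaf results, and the nitrate assimilation pair Medtr4g104700 and Medtr4g104730.

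A list of 220 loci resembling Arabidopsis targets of SOC1 held 3 of the selected loci. Medtr2g105010 and Medtr4g006970 are homologs of AT4G18700, which encodes a calcineurin B-like-interacting protein kinase in Arabidopsis. Medtr2g105010 had 51.6, 43.6 and 43.5 CPM in the triple mutant libraries, 228, 287 and 268 CPM in Mtsoc1a and 171, 401 and 161 CPM in WT. Medtr4g006970 had 6.08, 3.63 and 3.81 CPM in the triple mutant libraries, 33.1, 33.2 and 38.5 CPM in Mtsoc1a and 18.4, 44.9 and 17.6 CPM in WT. Medtr3g102810, a homolog of the subtilase gene AT5G59130, had 4.22, 1.46 and 2.23 CPM in the triple mutant libraries, 28.8, 36.5 and 51.0 CPM in Mtsoc1a and 24.1, 41.9 and 15.4 CPM in WT. Over the whole list 30 of 214 tested loci were called lower in the triple mutant, with a median log2 fold change of -0.14. None of the 21 RT-qPCR genes was selected, of which only 3 were within the bounds of the rule.

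**Figure D3:**
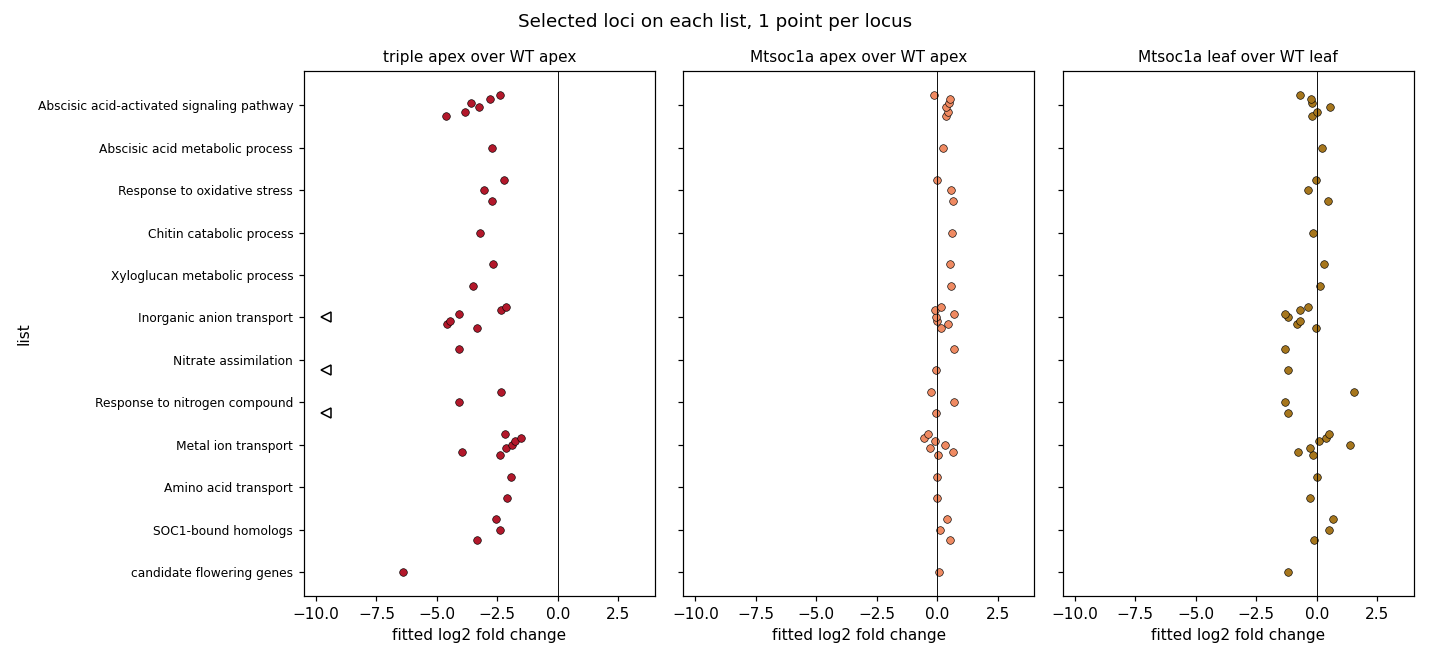
Fitted log2 fold change of each selected locus on a list, in triple mutant apex over WT apex (left), Mtsoc1a apex over WT apex (middle) and Mtsoc1a leaf over WT leaf (right). A locus may be on several lists. The open triangle is Medtr4g104700, at 0 counts in the triple mutant, whose fitted value depends on the prior count. The left panel holds only negative values, as the rule requires, and in the leaf panel the 7 anion transport loci all lie below 0.

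Mtsoc1a leaf was compared with WT leaf to ask whether the loci also changed in the SOC1a insertion line, in a tissue the rule had used only in WT. Whether SOC1a was the only locus disrupted in that line was not examined. Of the 188 loci that passed the filter in leaf, 4 were called higher and 1 lower in Mtsoc1a leaf, where 0.193% and 0.0457% of all 19706 loci tested were called. The called loci were Medtr2g102370, Medtr5g022130, Medtr5g022180 and Medtr3g102980, all higher, and Medtr0027s0230, lower. The median log2 fold change of the 188 was -0.14, against 0.00 over all loci tested, and 114 (60.6%) were below 0. At an unadjusted p under 0.05, 25 were lower and 23 higher, 13.3% and 12.2% of the loci, where all loci tested gave 5.11% and 5.64%. In 22 loci all Mtsoc1a leaf libraries lay below all WT leaf libraries and in 20 above, 11.7% and 10.6%, compared with 9.06% and 7.51% of all loci tested. The loci that did not pass the filter in leaf were 12, among them Medtr7g108220 and Medtr8g046830. The photosynthesis list summed to 7634 to 9969 CPM in Mtsoc1a leaf and 4586 to 5342 CPM in WT leaf, with 22 of the 23 loci tested above 0 and none called, and its part in these results was not tested.

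**Figure D4:**
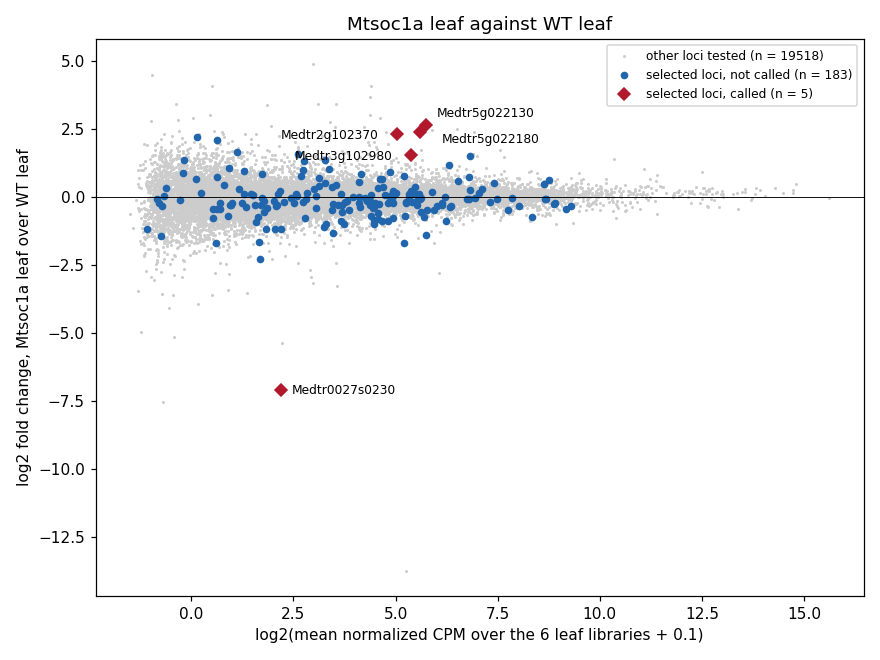
Log2 fold change of Mtsoc1a leaf over WT leaf against the mean level over the 6 leaf libraries, for all loci tested (grey), selected loci not called (blue) and the 5 selected loci that were called (red, named). Medtr0027s0230 lies at -7.09, and the 4 loci called higher lie between 1.54 and 2.65.

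Medtr2g102370, annotated with location in the cytosol, had 60.2, 51.9 and 49.8 CPM in Mtsoc1a leaf, against 11.3, 11.2 and 10.8 CPM in WT leaf. The replicates of each genotype were close together and the genotypes were far apart, with a log2 difference of 2.31 ± 0.12 (SE, adjusted p = 1.3e-04, edgeR). In apex it had 7.33, 3.10 and 4.70 CPM in the triple mutant libraries, 25.5, 28.0 and 31.3 CPM in Mtsoc1a and 12.6, 40.8 and 16.2 CPM in WT, where Mtsoc1a and WT overlapped.

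Medtr5g022130 and Medtr5g022180, both annotated with RNA binding and 50 apart in number, were higher in all 3 Mtsoc1a leaf libraries. Medtr5g022130 had 96.4, 79.3 and 102 CPM in Mtsoc1a leaf, against 14.0, 9.94 and 20.9 CPM in WT leaf, and Medtr5g022180 had 66.5, 91.0 and 85.9 CPM in Mtsoc1a leaf, against 11.7, 12.5 and 23.3 CPM in WT leaf. Their log2 fold changes were 2.65 ± 0.27 and 2.38 ± 0.30 (SE, adjusted p = 0.0109 and 0.0258, edgeR). In apex Medtr5g022130 had 2.31, 0.702 and 1.88 CPM in the triple mutant libraries, 11.8, 18.1 and 24.2 CPM in Mtsoc1a and 5.23, 27.4 and 6.48 CPM in WT. Medtr5g022180 had 3.56, 2.46 and 1.98 CPM in the triple mutant libraries, 12.2, 16.0 and 18.9 CPM in Mtsoc1a and 7.30, 32.9 and 6.73 CPM in WT, so that in both WT replicate 2 was far above the other WT libraries. If the sequences of the 2 loci are alike, their reads could have been shared between them, which was not tested.

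Medtr3g102980, on the nitrogen compound list and annotated with transcription initiation, had 44.9, 63.3 and 76.6 CPM in Mtsoc1a leaf, against 17.8, 20.8 and 26.0 CPM in WT leaf, with a log2 difference of 1.54 ± 0.24 (SE, adjusted p = 0.0450, edgeR). In apex it had 4.02, 2.46 and 4.90 CPM in the triple mutant libraries, 13.8, 18.8 and 16.2 CPM in Mtsoc1a and 14.0, 27.9 and 16.3 CPM in WT. The 4 loci were thus higher in Mtsoc1a leaf than in WT leaf. In apex, Mtsoc1a stayed within or near the range of WT and the triple mutant was below both. The rule had left out loci with a 2-fold rise in Mtsoc1a apex and taken those lowest in the triple mutant. The apex values are therefore no sign that the rise was limited to leaf.

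The small heat shock protein locus Medtr0027s0230 went the other way. It had 4, 0 and 0 counts in Mtsoc1a leaf against 175, 164 and 256 in WT leaf, with a log2 difference of -7.09 ± 0.73 (SE, adjusted p = 0.0103, edgeR). With counts this near 0 the size of the difference is uncertain beyond that SE. It ranged from -10.6 to -6.51 when 1 leaf library was left out. It was thus at or near 0 in the triple mutant apex and in Mtsoc1a leaf and low in Mtsoc1a apex, and present in both WT tissues. In Mtsoc1a apex its log2 fold change against WT apex was -2.84, which edgeR did not call and DESeq2 did.

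**Figure D5:**
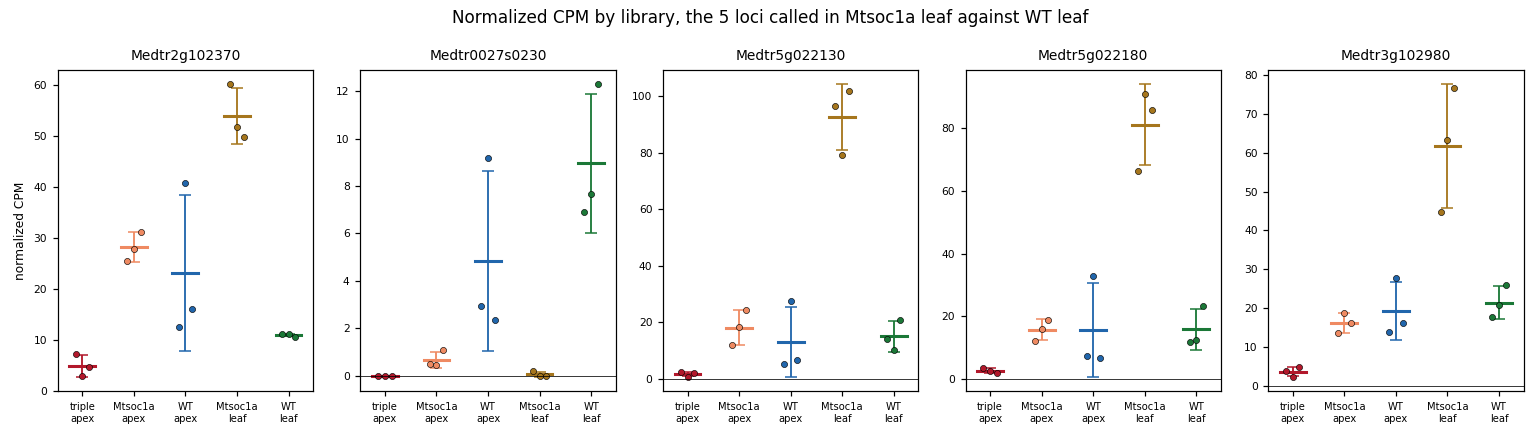
Normalized CPM of the 5 loci called in Mtsoc1a leaf, 1 point per library, with the mean (bar) and SD (whiskers, n = 3) in each of 5 groups. The y axes differ between loci. In 4 loci the Mtsoc1a leaf libraries are above all WT leaf libraries, and in Medtr0027s0230 they are at or near 0.

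Leaving out 1 leaf library changed 4 of these 5 calls. Medtr2g102370 was called in each case, and with 1 library left out the count of called loci was between 1 and 5. Without Mtsoc1a leaf replicate 3 only Medtr2g102370 was called, without WT leaf replicate 1 there were 2 calls, without WT leaf replicate 3 there were 3, and without replicate 2 of either genotype there were 4, of which 3 were among the 5. The added locus was Medtr2g102670 without Mtsoc1a leaf replicate 2 and Medtr1g041695 without WT leaf replicate 2. DESeq2 called 15 of the loci in leaf, 6 lower and 9 higher, among them all 5. No share over all loci is given for DESeq2, so this count shows only how the calls depend on the method. The median log2 fold change of the selected loci tested was 0.00 without WT leaf replicate 3, the library that was highest for most of them, and -0.24 without WT leaf replicate 2.

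Among the loci that edgeR did not call, Medtr3g113890 had 1.86, 1.90 and 2.48 CPM in Mtsoc1a leaf, against 5.42, 4.99 and 4.03 CPM in WT leaf, which did not overlap (log2 fold change -1.18 ± 0.28 SE, adjusted p = 0.153, edgeR). DESeq2 called it lower. By TPM, 14 of the 200 were under 0.5 times WT in Mtsoc1a leaf and 13 were over 2 times, given as a description without a share over all loci. Medtr3g072500 illustrates the spread, with 62.9, 4.64 and 19.8 CPM in Mtsoc1a leaf, against 78.3, 55.1 and 97.9 CPM in WT leaf. In Mtsoc1a, 20 loci had a leaf over apex TPM ratio of 0.25 or less and 2 had a ratio of 4 or more. The rule held the WT ratio inside these bounds, with a lowest value of 0.252. These counts, also without a share over all loci, cannot be read as a genotype difference.

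In Mtsoc1a apex none of the 198 loci was called against WT apex by edgeR, where 0.0709% of all loci were called lower and 0.155% higher. At an unadjusted p under 0.05 there were 2 lower and 6 higher, 1.01% and 3.03% of the loci, where all loci tested gave 5.82% and 6.33%, and DESeq2 called 1, lower. The rule had left out loci with a 2-fold rise, so the upper side was closed beforehand. The median log2 fold change was 0.05, and 0.38 without WT apex replicate 2, when 4 loci were called higher, namely Medtr2g030100, Medtr2g102670, Medtr5g022180 and Medtr8g088860.

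Medtr3g466460, Medtr2g102670 and Medtr1g040430 had the highest Mtsoc1a over WT apex ratios, at 1.88, 1.87 and 1.81. Medtr2g102670, annotated as a transmembrane transporter, had 12.7, 7.90 and 9.20 CPM in the triple mutant libraries, 109, 164 and 150.4 CPM in Mtsoc1a and 43.4, 127 and 47.7 CPM in WT. In leaf it had 209.8, 94.0 and 197 CPM in Mtsoc1a leaf, against 54.4, 46.6 and 76.0 CPM in WT leaf, also without a call (adjusted p = 0.137, edgeR). DESeq2 and the fit without Mtsoc1a leaf replicate 2 each called it higher in Mtsoc1a leaf. The lowest ratios were those of Medtr0027s0230 (0.151), Medtr3g047450 (0.293) and Medtr1g053705 (0.370). Medtr3g047450 had 0, 14 and 12 counts in Mtsoc1a apex and 32, 36 and 29 in WT apex.

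Within the triple mutant, libraries of some loci differed widely. Among the 158 loci with counts in all 3 triple mutant libraries, the largest ratios of highest to lowest were those of Medtr1g041695 (19.6), Medtr8g007035 (13.5) and Medtr2g088980 (12.2). Medtr8g007035 had 2.01, 0.175 and 0.148 CPM in the triple mutant libraries, 9.38, 13.1 and 13.7 CPM in Mtsoc1a and 2.73, 14.7 and 4.40 CPM in WT, and was also among the loci not called. The smallest ratios among the 158 were those of Medtr4g124660, annotated with nodulation (1.06), Medtr4g073590, annotated with actin filament polymerization (1.07), and Medtr5g075220, annotated with intracellular signal transduction (1.12). Medtr4g124660 had 70.9, 74.2 and 74.8 CPM in the triple mutant libraries, 273, 370.0 and 643 CPM in Mtsoc1a and 348, 452 and 289 CPM in WT, so that its triple mutant libraries were nearly equal while its Mtsoc1a libraries were not.

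Of the 200 loci, 176 had 1 transcript in the table. For the 24 others, 41 transcripts could be tested in apex, all 41 had a log2 fold change below 0 in the triple mutant, and 21 were called lower. The loci were numbered to all 8 chromosomes, with 11 to 34 on each and 9 on unplaced scaffolds. There were 15 pairs of neighbours in the sorted list of selected loci no more than 100 apart in number, involving 29 loci. These include Medtr5g022130 and Medtr5g022180, Medtr6g033055 and Medtr6g033085, Medtr4g104700 and Medtr4g104730, and the run of Medtr7g108200, Medtr7g108220 and Medtr7g108260, chosen for mention after their values were seen. The predicted term given most often was integral component of membrane, for 19 of the 149 loci with a term.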

How the data were processed

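The 15 polyA-enriched RNA libraries fell into 5 groups of 3. The authors trimmed reads with fastp and ran Salmon 0.8.2 on the Mt4.0v2 transcriptome. They deposited Salmon's estimated counts per transcript and library, with decimals in 1 library, and TPM as 1 value per group, whose derivation is not given in the sources used here. Their own tests used DESeq2 1.24.0.

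Counts were summed by locus, rounded and tested in R 4.3.3 with edgeR 4.0.16 (quasi-likelihood F-test, robust, TMM, filterByExpr at a minimum count of 10), in 1 fit over 9 apex libraries and 1 over 6 leaf libraries. Printed CPM are TMM-normalized over all 15 libraries. Each SE was derived from the F statistic, as the size of the log2 fold change divided by the square root of F. CPM are not compared between genes, nor between tissues apart from the check of the leaf to apex bound. On simulated data with leaf counts, 56 of 100 loci changed 2-fold and 100 of 100 changed 4-fold were recovered, with 4 false calls among 19654 loci. For triple mutant against WT apex, 39 and 100 of 100 were recovered, with 5 false calls among 21338. The simulated loci varied independently with the same spread for every locus, and only loci with high counts were changed. The selected loci varied more and moved together between replicates, so these rates need not hold for them. DESeq2 1.42.0, other filters, transcripts, a replicate block and leaving out libraries were alternatives. Annotation terms and lists are the study's. The loci named were the 10 lowest by ratio, the 10 highest in WT apex, all called in leaf, those on lists (4 where over 5), those at the limit, and the 3 extremes of spread (among loci with counts in all 3 triple mutant libraries) and of Mtsoc1a over WT ratio. Members and lists were chosen with earlier results of these data known. No sequence was used here.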

Additional observations from a re-analysis of the deposited data

How the results depend on the processing

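The 200 loci depend on the rule. With a pseudocount of 0.1 TPM 174 were kept, with 5 TPM 125, with a WT apex minimum of 10 TPM 142, with a 2-fold leaf bound 101, and with mean CPM in place of TPM 96. With mean CPM and without WT apex replicate 2, chosen after seeing the data, 74 were kept. Called loci in Mtsoc1a leaf were 5 with edgeR, 15 with DESeq2, 1 by transcripts and 17 with a replicate block, and 1 to 5 with 1 library left out. For these alternatives no share over all loci is given, so the counts show only how the calls depend on the method. The 15 and the 17 each contained all 5, and both also held Medtr1g099800, Medtr2g102670 and Medtr3g113890. Of the anion transport loci, Medtr4g104730 was called with the replicate block and Medtr1g041695 without WT leaf replicate 2. Over 12 alternatives Medtr2g102370 was called in every one, Medtr0027s0230 and Medtr5g022130 missed the threshold in 3 each, and Medtr5g022180 and Medtr3g102980 in 6 each, all with unchanged direction. Same-numbered leaf libraries correlated at 0.261, 0.289 and 0.0623 in their deviations from group means, each best with its own number, a hint from the data and not from the design, so the numbers were not taken as pairs. In Mtsoc1a apex the count was 0 with edgeR, 1 with DESeq2, and 0 to 4 with 1 library left out, 4 without WT apex replicate 2. In the triple mutant, 136 to 169 loci were called against WT apex and 142 to 175 against Mtsoc1a apex with 1 library left out. No other alternative moved a count by over 1.5 times, and the replicate block gave 159 and 160 calls in these contrasts. Depth was lowest in the triple mutant (13224488 to 15891830 counts), which limits values at 0 to 3 counts.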
